A study of Caenorhabditis elegans with 4 samples.

Results

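The regions described here are the NURF-1 binding peaks on chromosome V of Caenorhabditis elegans. They were taken as every row of the authors' series-wide peak list whose chromosome is V, which gave 1170 of 7512 peaks. By peak midpoint, the outer 25% of the length at each end was taken as the left and the right arm and the middle 50% as the centre. They held 263, 243 and 664 peaks. On WormBase WS220, the build of the files, the left arm ran from base 1 to 5231037, the centre from 5231038 to 15693111 and the right arm from 15693112 to 20924149. These borders are set by length alone, not by recombination.

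NURF-1 was profiled by ChIP-seq in wild-type N2 larvae at the L3 stage, kept at 20 degrees Celsius, in a population of both males and hermaphrodites. Chromatin of ground, frozen larvae was fixed with EGS, a protein crosslinker, and formaldehyde. A rabbit polyclonal antibody, SDQ3525, was used for 2 ChIP samples, and 2 input samples were made alongside. Values were at hand for the 2 ChIP samples, as 1 peak list each, and for the series-wide list, and the input samples were not analysed here. Whole larvae were used, so the lists are a sum over all tissues, and the labels do not say whether the replicates came from separate cultures. Depth is unknown, because peak lists carry no read totals, and p-values are not given, because a single group was profiled. A list can be shorter through fewer reads or through poorer enrichment, which cannot be told apart here. Replicate 1 had 6320 peaks, 962 of them on V, and replicate 2 had 5357, 826 of them on V.

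NURF-1 is the worm counterpart of BPTF, the biggest protein of NURF, a chromatin remodelling complex. NURF slides nucleosomes with an ISWI-type ATPase, and in mammals BPTF reads histone H3 methylated at lysine 4, a mark of active promoters. Chromosome V is the longest worm chromosome. Like the other autosomes it has a central region rich in conserved genes, and arms that recombine more often, hold more repeats and carry more heterochromatin. The arms of V are known for large families of chemoreceptor, F-box and nuclear hormone receptor genes. No gene is assigned to a peak here, because the gene table at hand is on another assembly.

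NURF-1 peaks were sparse on chromosome V. It carried 55.9 series-wide peaks per Mb, against 75.2 on chromosome II, 78.5 on IV, 104 on I and 105 on III. In replicate 1 the density on V was 46.0 peaks per Mb, and the other autosomes ranged from 65.2 on II to 90.8 on I. In replicate 2 it was 39.5 peaks per Mb, and the others ranged from 53.6 on IV to 76.5 on I. V was thus the lowest of the 5 autosomes in each of the 3 lists. The series-wide density on V was 0.622 times that of I to IV pooled (exact 95% interval 0.584 to 0.663), 0.601 times in replicate 1 (0.560 to 0.644) and 0.611 times in replicate 2 (0.566 to 0.659). V made up 25.3% of the autosomal sequence and held 17.4% of the autosomal series-wide peaks. Peaks covered 2.71% of V and 4.48% of I to IV. These intervals, and those of all ratios and shares below, cover counting error only. Peaks lie in clusters, so the intervals are too narrow, and they measure neither the spread between cultures nor that between chromosomes.

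Each zone of V was below the same zone of I to IV pooled, and the right arm was the furthest below. The centre held 63.5 series-wide peaks per Mb, the left arm 50.3 and the right arm 46.5. The ratio to the same zone of I to IV was 0.698 in the centre (0.640 to 0.760), 0.581 in the left arm (0.507 to 0.664) and 0.510 in the right arm (0.443 to 0.585). Replicate 1 had 52.7 peaks per Mb in the centre, 44.0 in the left arm and 34.6 in the right arm. Replicate 2 had 47.7, 33.3 and 29.2 in the same order. The order of the zones was the same in the 3 lists. The left arm of chromosome II was as sparse as that of V, with 49.7 series-wide peaks per Mb, 41.9 in replicate 1 and 35.3 in replicate 2. In the right arm V was the lowest autosome in each list, followed by IV with 69.5 series-wide peaks per Mb.

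**Figure D1:**
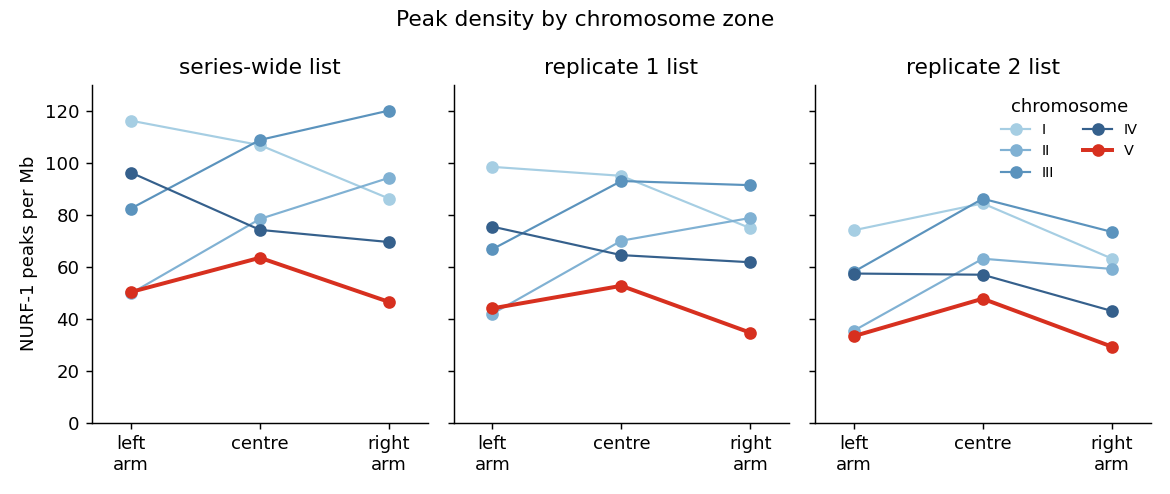
NURF-1 peaks per Mb (y axis) in the left arm, centre and right arm (x axis) of each autosome, with 1 panel for each peak list and V in red. V lies below every other autosome in the centre and the right arm of each list, and beside chromosome II in the left arm.

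Counts by 500 kb bin showed how the peaks were spread along V. The 41 full bins held 13 to 45 series-wide peaks, with a median of 27, and the bins of I to IV held 15 to 74, with a median of 45. Bins with 40 or more peaks numbered 3 of 41 on V and 76 of 121 on I to IV. The densest bins of V ran from 14000001 to 14500000, with 45 series-wide peaks, 38 in replicate 1 and 35 in replicate 2, and from 11500001 to 12000000, with 42, 33 and 35. Both lie in the centre. The next, from 1000001 to 1500000 in the left arm, held 41 series-wide peaks, 31 in replicate 1 and 29 in replicate 2, and stood well above the bins on either side of it, which held 18 and 21. The next held 36 peaks and began at 8000001. Bins beginning at 6000001, 7500001, 9500001 and 13500001 tied at 35.

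The sparsest bin by count was not the one least covered by peaks. From 3000001 to 3500000 the series-wide list held 13 peaks, replicate 1 held 20 and replicate 2 held 12, and the peaks covered 1.90% of the bin. Within it, a block at 3434780 to 3441164 was 3 series-wide peaks, 11 peaks in replicate 1 and 6 in replicate 2, so the count there depended on how the signal was cut into peaks. The least covered bin ran from 16000001 to 16500000 in the right arm, with 18 peaks on 1.34% of its length. It was followed by 18000001 to 18500000, also in the right arm, with 21 peaks on 1.38%. The bins that began at 500001 and 19000001 also held 18 peaks, and those at 1500001, 2000001, 14500001 and 15500001 held 21. Across the 41 bins the counts of the replicates had a Spearman's rho of 0.84, a description of bins that share the chromosome and both libraries.

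**Figure D2:**
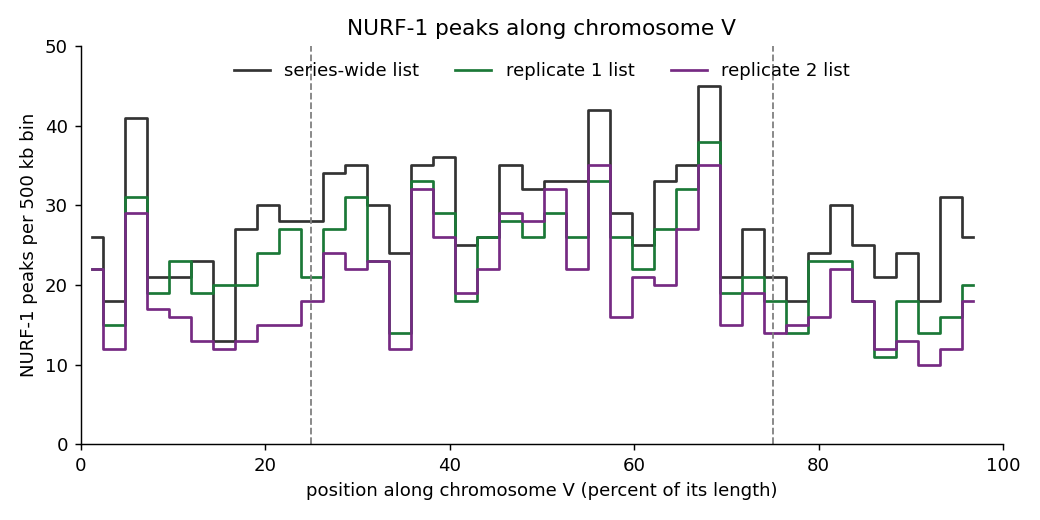
NURF-1 peaks per full 500 kb bin (y axis) against position along chromosome V in percent of its length (x axis), for the series-wide list and both replicates. Dashed lines mark the zone borders, and the 45 peaks of the densest series-wide bin lie in the centre.

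Within V, peaks were denser in the centre, and the weak peaks did not gather in the arms. The density in the centre was 1.31 times that of the arms in the series-wide list (1.17 to 1.48), 1.34 times in replicate 1 (1.18 to 1.53) and 1.53 times in replicate 2 (1.32 to 1.76). For I to IV pooled the same ratio was 1.02 (0.972 to 1.08), 1.09 (1.03 to 1.15) and 1.25 (1.17 to 1.33). The intervals of V and of I to IV did not overlap in the series-wide list and replicate 1, and overlapped in replicate 2. Taken singly, the other autosomes had series-wide ratios from 0.895 (IV) to 1.09 (II), all below V.

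The authors' score was used to divide peaks into higher-scored ones, above the median of 12.85 of the whole series-wide list, and lower-scored ones. Its scale is not given, so it only ranks peaks within a list. Higher-scored peaks on V were 1.66 times as dense in the centre as in the arms (1.39 to 1.98), and on I to IV 1.35 times (1.25 to 1.45), with overlapping intervals. Lower-scored peaks on V had a ratio of 1.07 (0.911 to 1.26), while on I to IV they were sparser in the centre, at 0.775 (0.718 to 0.836). Each of the other autosomes was below V here, from 0.692 on IV to 0.861 on II. With each replicate's own median, lower-scored peaks gave 1.08 on V (0.898 to 1.29) and 0.832 on I to IV (0.767 to 0.903) in replicate 1, and 1.28 (1.05 to 1.56) and 1.03 (0.940 to 1.12) in replicate 2. V was the higher in both, but the intervals overlapped. Taken singly, the other autosomes ran from 0.700 (IV) to 0.904 (II) in replicate 1 and from 0.931 (IV) to 1.16 (II) in replicate 2. In replicate 2 the ratio was also 1.01 on I and 1.05 on III. There, weak peaks that did not gather in the arms were thus not particular to V.

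The left and right arms did not differ detectably in the number of series-wide peaks. The left arm had 1.08 times as many series-wide peaks as the right (0.906 to 1.29). The ratio was 1.27 in replicate 1 (1.04 to 1.55) and 1.14 in replicate 2 (0.910 to 1.42), so the interval excluded 1 in replicate 1 and not in replicate 2. Among higher-scored series-wide peaks it was 1.38 (1.04 to 1.83), with 121 peaks on the left and 88 on the right. Among higher-scored peaks of the replicates it was 1.27 (0.933 to 1.72) and 1.12 (0.794 to 1.58), with intervals that include 1. Over all series-wide peaks, the left to right ratio of the other autosomes ran from 0.528 on II to 1.38 on IV.

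The makeup of the zones by score differed in the series-wide list, and between the arms this was not seen in the replicates. In the series-wide list higher-scored peaks were 52.1% of the centre (Wilson 95% interval 48.3 to 55.9), 46.0% of the left arm (40.1 to 52.0) and 36.2% of the right arm (30.4 to 42.4). The left arm exceeded the right by 9.79 percentage points (Newcombe 95% interval 1.21 to 18.2). At the replicates' own medians the left and right arms had 43.5% and 43.6% in replicate 1 and 43.1% and 43.8% in replicate 2. Against the same zones of I to IV, the right arm of V was lower, by a difference of -8.19 percentage points (-14.5 to -1.46), and so was the centre, by -5.26 points (-9.47 to -1.06). The left arm did not differ detectably (3.17, -3.33 to 9.76). The lower share of the right arm was absent in replicate 1, with 43.6% on V and 43.2% on I to IV, and smaller in replicate 2, with 43.8% and 46.6%. For the centre the gap was smaller in both replicates. The shares were 54.6% on V and 56.1% on I to IV in replicate 1, and 52.5% and 54.8% in replicate 2, with overlapping intervals. In the series-wide list the right arm held 16.8 higher-scored peaks per Mb, 0.416 times the density in the right arms of I to IV (0.329 to 0.521). It held 29.6 lower-scored ones per Mb, a ratio of 0.585 (0.489 to 0.696). The ratios of higher-scored and lower-scored peaks were 0.462 and 0.452 in replicate 1 and 0.468 and 0.524 in replicate 2. Both classes were thus sparse in the right arm in each list, and the gap between them was not found in replicate 1.

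The right arm nevertheless carried the 2 highest-scored peaks of the chromosome. The highest-scored V peak, at 18533207 to 18534229, scored 255 and ranked 3 among all 7512 series-wide peaks. Its score was 336 in replicate 1 and 263 in replicate 2, rank 1 and rank 4 in those lists, and its nearest neighbour lay 217 bp to its left. The second, at 20492992 to 20494124, scored 202, with 248 and 214 in replicates 1 and 2, and was the second-ranked V peak in each replicate too. The third, at 12317939 to 12318745 in the centre, scored 202 as well and was rank 3 of V in replicate 1 and rank 4 in replicate 2. Of the 10 highest-scored V peaks found in both replicates, 7 lay in the centre, 3 in the right arm and 0 in the left.

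The other 7 of these 10 peaks scored 178 to 192. Those of the centre lay at 7230671 to 7231425, 11238968 to 11239806, 11228194 to 11229819, 15084983 to 15085878, 14524007 to 14524820 and 14038167 to 14039180, and that of the right arm at 19949042 to 19950104. The peaks beginning at 11228194 and 11238968, 1626 and 839 bp wide, are not direct neighbours. The next peak to the right of the first lay 5984 bp away, and the next to the left of the second 2707 bp away. Among the 100 highest-scored peaks of V, 71 were in the centre, 18 in the left arm and 11 in the right arm. The 100 lowest-scored ones divided as 54, 21 and 25. All V peaks divided as 664, 263 and 243, which is close to the division of the lowest-scored ones.

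By series-wide score the left arm held no peak as high as these. Its highest-scored peak, at 7698 to 8686, scored 174, with 166 and 104 in replicates 1 and 2, and lay near the left end of the chromosome with the nearest peak 7402 bp away on one side and 56412 bp on the other. The next were at 4731211 to 4731944, with a score of 173, and at 104207 to 105102, with a score of 166. Replicate 2 ranked these 3 peaks 36, 44 and 58 among its V peaks, and replicate 1 ranked them 21, 14 and 10. In replicate 1 the third scored 186, above some of the 10 peaks named before. V as a whole contributed 5 of the 50 (Wilson 4.35% to 21.4%), 13 of the 100 (7.76% to 21.0%) and 78 of the 500 (15.6%, 12.7 to 19.0) highest-scored peaks of the series. It held 1170 of all 7512, a share that lies inside each of these intervals.

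**Figure D3:**
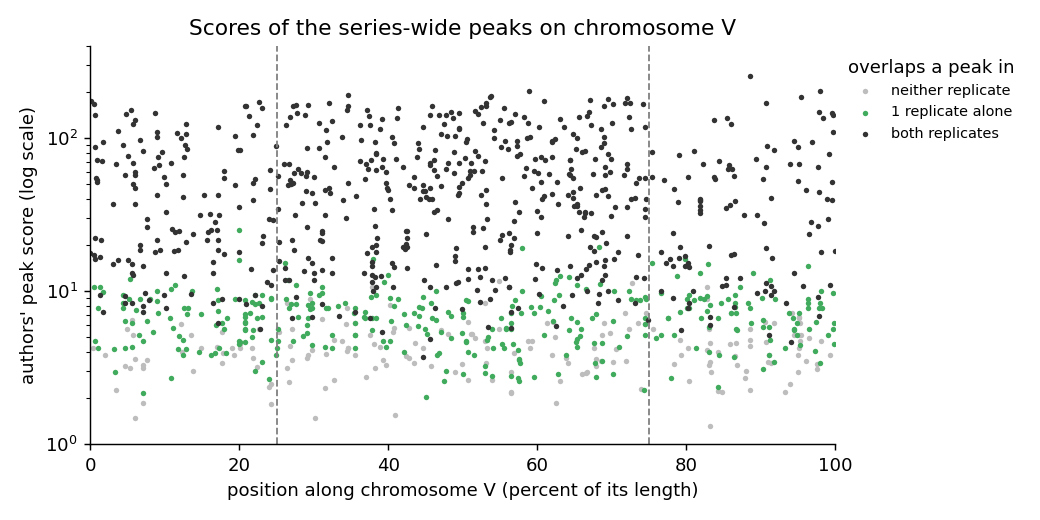
Authors' peak score on a log axis (y) against position along chromosome V in percent of its length (x), 1 point for each of the 1170 series-wide peaks, coloured by overlap with the replicate lists. The highest point, at a score of 255, lies in the right arm, where high points are otherwise few.

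Taken as a whole, peaks on V were of usual width for the autosomes. The median width was 367 bp, with quartiles at 223 and 642 bp, and 389 bp on I to IV. On V it was 396 bp in the centre, 351 bp in the left arm and 309 bp in the right arm. The same zones of I to IV had 465, 308 and 338 bp, so the centre of V was narrower and its left arm wider. In replicate 1 the medians of V were 419, 325 and 322 bp in the same order, and in replicate 2 they were 389, 312 and 293 bp. The centres of I to IV had 426 and 402.5 bp in the replicates, closer to V. On V, median width was thus greatest in the centre and least in the right arm in each list. Within a score class the zones were more alike. The centre to arm ratio of median widths was 1.16 over all series-wide V peaks, 1.08 among higher-scored and 1.04 among lower-scored ones. On the other autosomes the ratio over all series-wide peaks was 1.38 to 1.56. In the replicates V lay within their range, at 1.297 against 1.27 to 1.46 and at 1.28 against 1.18 to 1.37.

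Peaks of 1000 bp or more numbered 87 on V, which was 7.44% of its peaks, against 8.30% on I to IV. The widest, 4346 bp at 9340819 to 9345164 with a score of 119, was 5 peaks in replicate 1 and 2 in replicate 2. The second, 4215 bp at 724094 to 728308 with a score of 68.1, was a single peak in each replicate, 3870 and 4269 bp wide. The others at 10605682 to 10609838, 17122126 to 17125981 and 3438130 to 3441164 were 3035 to 4157 bp wide, scored 8.37 to 39.9 and were 4 peaks each in replicate 1 and 6, 4 and 2 in replicate 2. Of these 5 widest peaks, 4 were thus broken up in both replicates. On V as a whole 71 series-wide peaks, or 6.07% (4.84 to 7.59), held more than 1 peak of a replicate. The other autosomes ran from 5.68% on IV to 7.92% on II, so V lay within their range.

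Long peak-free stretches took up more of V than of any other autosome. Stretches of 50 kb or more between neighbouring series-wide peaks numbered 95 on V and summed to 8.17 Mb, or 39.0% of the chromosome. They made up 30.4% of IV, 25.8% of II, 15.5% of I and 11.6% of III. The share was 48.0% in replicate 1, where the others ranged from 17.0% to 38.2%, and 52.8% in replicate 2, where they ranged from 22.4% to 45.8%. V was highest in each list. Their number per 10 Mb was not particular to V. It was 45.4 on V and 41.7 on IV in the series-wide list, 52.6 on both in replicate 1, and 55.4 on V and 56.6 on IV in replicate 2. Of the 10 longest autosomal stretches 7 were on V, and of the 50 longest 26. Of all stretches of 50 kb or more, V had 95 and I to IV together had 182.

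The zones differed in these stretches as they did in density. By the midpoint of the stretch, 33 fell in the right arm, 25 in the left arm and 37 in the centre, which is as long as both arms together. They made up 55.8% of the right arm, 42.7% of the left and 28.8% of the centre. The same shares on I to IV were 27.3%, 24.0% and 17.2%. The right arm was highest for V in the replicates too, at 63.7% and 71.6%. Single zones elsewhere came close, since the right arm of IV reached 50.5% and the left arm of II 43.9%, more than the left arm of V.

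The longest stretch on V ran from 19221262 to 19520081 in the right arm, 298.8 kb without a series-wide peak. In replicate 1 it was 298.8 kb and in replicate 2 it was 322.7 kb, and it was the longest on V in each list. The longest stretch on another autosome was 165.0 kb, on IV. The second on V ran from 413867 to 631823 in the left arm, 218.0 kb, and was 275.4 and 275.5 kb in replicates 1 and 2. The third ran from 7237639 to 7416118 in the centre, 178.5 kb, and its left flank was a peak scoring 162.

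The other stretches among the 10 longest were 131.7 to 162.8 kb. In the left arm they began at 2891074, 4196635 and 3848708, in the centre at 14835880 and 5285678, and in the right arm at 15880862 and 18728575. Together the 10 summed to 1710.6 kb. Of the 10, 9 held no complete peak of either replicate. The exception began at 15880862 and held 2 replicate 1 peaks that scored at most 6.65. Among all 95 stretches, 90 held no complete peak of either replicate, 4 held peaks of replicate 1 and 1 held a peak of replicate 2. The series-wide list took in 97.5% and 97.9% of the V peaks of replicates 1 and 2. Few replicate peaks could therefore lie in its gaps, so their emptiness is no independent check. With the 3 lists joined, V had 94 stretches of 50 kb or more, on 38.5% of its length, against 11.0% to 28.9% for the others. That count is bound to be close to 95 for the same reason. The files do not show whether reads could be mapped in these stretches, and their part in the gaps was not tested.

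**Figure D4:**
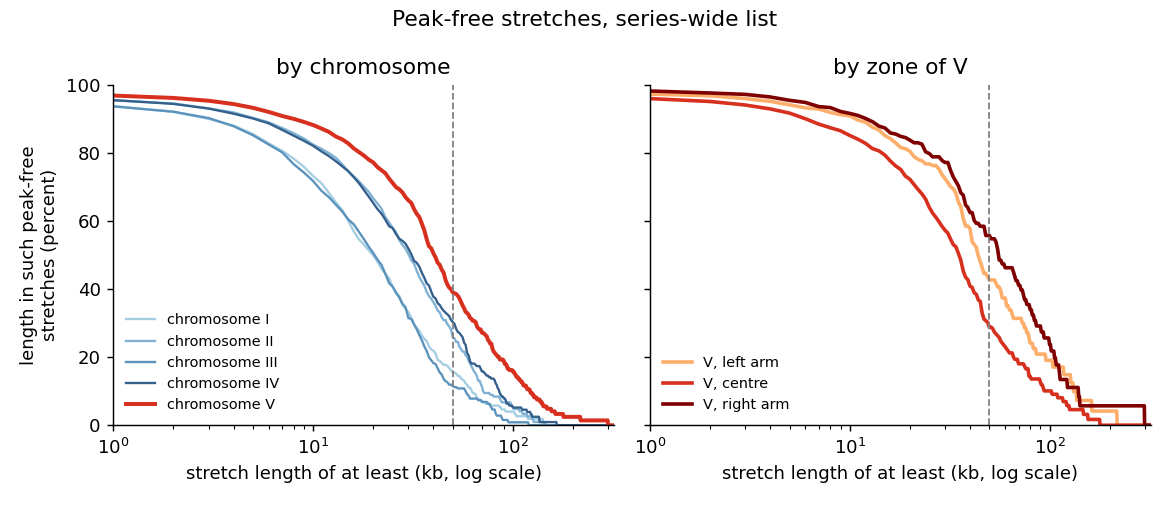
Share of length (y axis, percent) that lies in peak-free stretches at least as long as the value on the x axis (kb, log scale), for each autosome on the left and each zone of V on the right. The dashed line marks 50 kb, where V reaches 39.0% and its right arm 55.8%.

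Neighbouring peaks on V were further apart. The median gap between neighbouring series-wide peaks was 6411 bp on V and 4496 bp on I to IV, and the 90th percentile was 45336 bp against 29177 bp. In replicate 1 the median was 8452 bp against 5450 bp, and in replicate 2 it was 11087 bp against 6622 bp. Outside the stretches of 50 kb or more V held 91.7 peaks per Mb and I to IV 114. The ratio was 0.802, against 0.622 over the whole chromosomes, and it was 0.837 in replicate 1 and 0.866 in replicate 2. Leaving out empty sequence raises every density by construction, and more so where there is more of it, so the higher ratio is no finding. V was lowest of the 5 autosomes outside these stretches too, in each list.

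Fewer V peaks lay in tight groups. With neighbours less than 2000 bp apart taken as a run, 46.8% of V peaks lay in runs, against 51.3% on II, 54.1% on IV, 55.0% on III and 56.1% on I. The shares were alike in the zones of V, at 46.0% in the left arm, 46.1% in the centre and 49.4% in the right arm. The longest run was 11 peaks over 10179 bp at 17384197 to 17394375 in the right arm, with a highest score of 19.8. The next was 10 peaks over 11892 bp at 7913104 to 7924995 in the centre, with a highest score of 19.4. Both were thus made of low to middling peaks.

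Isolated peaks were more frequent on V. Peaks with at least 20 kb free on both sides numbered 100 of 1170 on V, or 8.55%, and 212 of 5539 on I to IV, or 3.83%. That background is pooled and was not taken for each autosome. Sparser peaks are by themselves further apart, less often in runs and more often isolated. The gaps, runs and isolated peaks are therefore no findings separate from the low density of V. Of the 100, 43 were higher-scored (43%, 33.7 to 52.8), and of the other 1070 V peaks 47.9% were (44.9 to 50.8). Their overlap with both replicates was 53% (43.3 to 62.5), against 56.0% (53.0 to 58.9) for the others. Isolated peaks on V therefore did not differ detectably from other V peaks in score class or in replicate support. On I to IV, 54.7% of isolated peaks were higher-scored (48.0 to 61.3) and 57.5% were in both replicates (50.8 to 64.0). These intervals overlapped those of isolated V peaks. Peaks beside a stretch of 50 kb or more were higher-scored in 61.3% of 75 cases in the centre (50.0 to 71.5) and in 29.5% of 61 cases in the right arm (19.6 to 41.9). For peaks not beside one the shares were 50.9% (46.9 to 55.0) and 38.5% (31.7 to 45.7), and the intervals overlapped in both zones. In the left arm they were 39.6% beside one (27.0 to 53.7) and 47.4% not beside one (40.9 to 54.1). On I to IV, peaks beside one were higher-scored in 34.6% of cases in the left arm, 59.4% in the centre and 43.7% in the right arm. Those not beside one had 43.5%, 57.3% and 44.5% in the same order.

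Over the whole of V, most peaks were found again in the replicates, at shares close to those of the other autosomes. Of the 1170 series-wide peaks, 652 overlapped a peak in both replicates by at least 1 bp, a share of 55.7% (Wilson 52.9 to 58.5), against 58.6% on I to IV. The difference was -2.84 percentage points (Newcombe -5.98 to 0.269). Replicate 1 held 896 of them (76.6%, against 78% on I to IV) and replicate 2 held 743 (63.5%, against 65.3%). The 183 found in neither were 15.6% (13.7 to 17.8), against 15.3%. How the series-wide list was made from the replicates is not given, so the overlap is not an independent check of its peaks.

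The share of V peaks found in both replicates was highest in the centre and lowest in the right arm. In the centre 60.4% of peaks were in both replicates (56.6 to 64.0), in the left arm 54.4% (48.3 to 60.3) and in the right arm 44.4% (38.3 to 50.7). The centre exceeded the arms by 10.8 percentage points (5.04 to 16.5), and I to IV showed a difference of the same size, 12.1 (9.50 to 14.7). The left arm exceeded the right by 9.93 points (1.21 to 18.4). Against the right arms of I to IV, that of V was lower, with a difference of -9.44 points (-16.1 to -2.63). The centre of V was lower than the centres of I to IV too, by -4.15 points (-8.30 to -0.0812). The left arm did not differ detectably from those of I to IV (3.43, -3.17 to 9.93). These differences depended on which replicate was required. Overlap with replicate 1 alone required was 79.8% in the left arm, 78.6% in the centre and 67.5% in the right arm, so the left arm was then as high as the centre. With replicate 1 alone the centre exceeded the arms by 4.70 points (-0.194 to 9.67) and with replicate 2 alone by 9.17 (3.59 to 14.7). The right arm of V against those of I to IV gave -7.64 points (-14.1 to -1.59) with replicate 1 and -4.57 (-11.3 to 2.09) with replicate 2. For the centre the values were -2.33 (-5.90 to 0.973) and -3.95 (-7.96 to -0.103). The left arm against the right gave 12.4 points (4.69 to 19.9) with replicate 1 and 6.86 (-1.72 to 15.3) with replicate 2. In the right arm 22.2% of V peaks were in neither replicate (17.5 to 27.9), against 19.5% on I to IV, a difference of 2.76 points (-2.47 to 8.74) that was not detectable at this number of peaks.

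**Figure D5:**
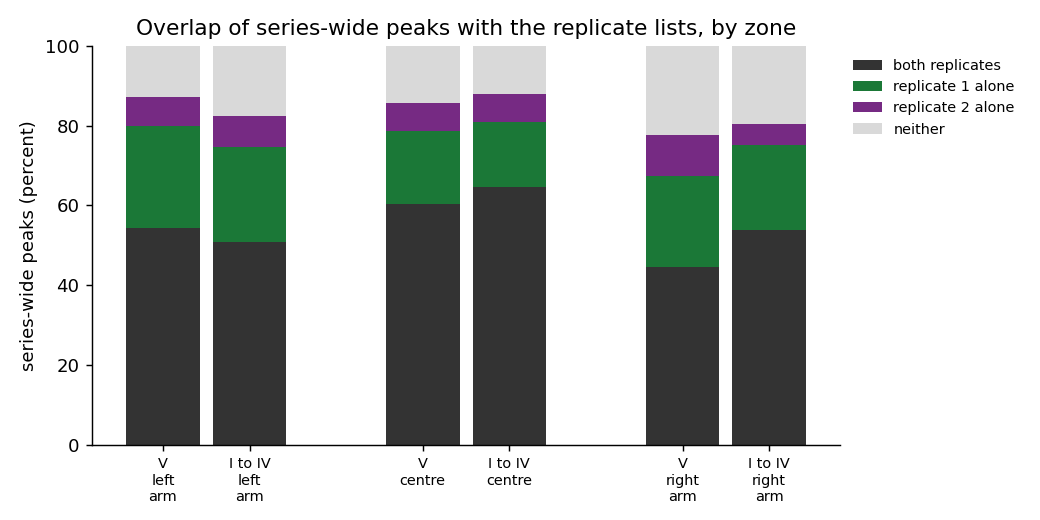
Share of series-wide peaks (y axis, percent) that overlap a peak in both replicates, in replicate 1 alone, in replicate 2 alone or in neither, for each zone of V beside the same zone of I to IV. The share in both replicates is 44.4% in the right arm of V and 60.4% in its centre.

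Support went with the score in every zone. Among higher-scored V peaks 119 of 121 in the left arm, 342 of 346 in the centre and 82 of 88 in the right arm were in both replicates, and all 555 overlapped a peak of replicate 1. Among lower-scored peaks the share in both was 16.9% in the left arm, 18.6% in the centre and 16.8% in the right arm. Shares were much the same on I to IV. There 97.0% of higher-scored and 19.2% of lower-scored peaks were in both, and 99.6% of higher-scored ones in replicate 1. The link between score and support was thus not particular to V. For V peaks in both replicates the median score was 42.3 and the median width 589 bp. Those in replicate 1 alone had medians of 6.78 and 254 bp, those in replicate 2 alone 6.21 and 211 bp, and those in neither 4.17 and 180 bp. The highest-scored V peak missing from a replicate scored 25.2 and was in replicate 1 alone, in the left arm.

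The centre also had the highest share when one replicate was searched for the peaks of the other. Of the 962 V peaks of replicate 1, 71.0% were in replicate 2 (68.1 to 73.8), against 71.7% on I to IV. The share was 75.7% in the centre (71.9 to 79.1), 64.8% in the left arm (58.4 to 70.7) and 64.6% in the right arm (57.4 to 71.2). Of the 826 V peaks of replicate 2, 85.5% were in replicate 1 (82.9 to 87.7), against 87.2% on I to IV, with 88.0% in the centre (84.8 to 90.5), 84.5% in the left arm (78.4 to 89.1) and 78.4% in the right arm (71.3 to 84.2). The series-wide list took in 97.5% of the V peaks of replicate 1 and 97.9% of those of replicate 2. The 24 and 17 V peaks it lacked scored at most 6.65 and 8.27.

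Where both replicates had a V peak, they placed it at nearly the same position. Over 618 pairs that overlapped one to one, the midpoints differed by a median of 36 bp, and by 100 bp or less in 530 pairs (85.8%). The median shift was 29.5 bp in the left arm, 39.5 bp in the centre and 34.25 bp in the right arm. Replicate 1 gave the wider peak in 411 of the 618 pairs, with a median width ratio of 1.10. Scores of the pairs had a Spearman's rho of 0.92 on V, and of 0.91, 0.93 and 0.90 in the left arm, the centre and the right arm. On each of I to IV the median shift was 38.5 to 39.5 bp, and 84.4% to 84.9% of pairs differed by 100 bp or less. Replicate 1 gave the wider peak in 64.2% to 67.6% of pairs there, and rho was 0.91 to 0.92. The close match of the replicates was thus not particular to V. All these values are descriptions across peaks, which share both libraries.

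The outermost peaks of V had middling scores. The first began at base 1 and was 295 bp wide with a score of 17.8, and 18.0 and 15.8 in replicates 1 and 2. The last ended at 20924149, the base taken as the chromosome's length, and was 258 bp wide with a score of 18.3, and 15.3 and 25.2 in the replicates. How reads that map to several places were treated is not given in the labels or headers.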

How the data were processed

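The data are peak lists from ChIP-seq, 1 for each of 2 NURF-1 ChIP samples and 1 for the series. Per the file headers, coordinates are 1-based on WormBase WS220 and peaks carry the name MACS. BWA and ce10 are listed in the submitters' processing notes. No source used here gives versions, thresholds, controls, read filters or the way the replicates were combined. The score of each peak is as the authors deposited it, on a scale not given.

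From the lists, counts, widths, gaps and overlaps were computed with Python 3.11.15, numpy 2.4.6 and scipy 1.17.1, and plotted with matplotlib 3.10.9. Chromosome length was the last base covered in any list. Zones were set by peak midpoint at 25% of the length from either end. Overlap needed 1 bp. Ratios of densities carry exact conditional binomial 95% intervals, shares Wilson and differences of shares Newcombe intervals. No p-value was computed, because the design has 1 group and peaks are not replicates. The measures were tested on simulated lists. The chromosome, its zones and the measures were chosen with earlier results of these data known. Named regions are the 10 highest-scored V peaks found in both replicates and the 3 highest of each zone, the 5 widest peaks, the 10 longest peak-free stretches, the 5 densest and 5 sparsest full 500 kb bins with their ties, and the first and last peak. The bins ranked by coverage, the longest runs and the block of broken peaks were picked after their values were seen. Alternatives were other lists, stricter scores and overlaps, merged runs and wider arms. No sequence was printed, since no genome of the files' build was used here.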

Additional observations from a re-analysis of the deposited data

How the results depend on the processing

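Of 43 alternatives, 23 were counted as leaving the result as reported and 16 as moving it. Of the rest, 3 brought it past its threshold, 1 took it below and 0 reversed it. A density ratio or a difference counted as unchanged if its interval still excluded, or still included, no difference, whatever its size. The number of stretches had to stay within a set factor. Width ratio and median gap had to stay within the spread of the replicates, and the share within its interval. The low density of V and the dense centre held under each alternative tried: 0.583 to 0.671 for V over I to IV and 1.21 to 1.66 for centre over arms. The number of long stretches on V was 95 to 131. Each alternative for it used a list with fewer peaks, which by itself lengthens gaps, so this range is no check of that number. Leaving out 1 replicate in turn, by using the other's list, gave 0.601 and 0.611, 1.34 and 1.53, and 110 and 116. The ratio of the left to the right arm, 1.08 as reported, had an interval excluding 1 without replicate 2 (1.27; 1.14 without replicate 1), for peaks above the median score (1.38) and for peaks in both replicates (1.32). The centre to arm ratio of widths, 1.16, was 1.28 and 1.297 without replicates 1 and 2, 1.08 for peaks above the median score, 1.10 for those in both replicates, 1.34 with runs merged and 1.26 with wider arms that left the centre as long as each arm. The median gap, 6411 bp, was 11087 and 8452 bp without replicates 1 and 2, 20878 bp for peaks above the median score, 16791 bp for those in both replicates and 14520 bp with runs merged. All of these leave out or join peaks. The share of peaks in both replicates, 55.7%, was 49.4% when 50% of the peak had to be covered, 47.8% for 200 bp shared and 97.8% above the median score. With only replicate 2 or only replicate 1 required it was 63.5% and 76.6%. The centre minus arm difference in that share, 10.8 points, fell most among peaks above the median score, to 2.67 points (0.0871 to 6.28). It was 4.70 points without replicate 2 (-0.194 to 9.67) and 9.17 without replicate 1. No paired analysis was possible because the input samples that share the replicate numbers have no values here. Depth is unknown, so fewer peaks in replicate 2 cannot be read as less binding.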
